A study of Sus scrofa with 36 samples.

Results

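The mitochondrial genome of the pig carries 7 genes for subunits of respiratory complex I, named ND1, ND2, ND3, ND4, ND4L, ND5 and ND6. On the porcine expression array used for these thyroid glands they were measured by 53 of 60305 probes. The probes were taken by their gene name in the scanner files, which gave 20 probes for ND1, 13 for ND2, 11 for ND4, 3 for ND3, 3 for ND5, 2 for ND6 and 1 for ND4L. All 53 passed the filter on dim probes, 52 of them with signal well above background on all 36 arrays. The exception was the ND2 probe O13734, which was well above background on 14 of 36 arrays and passed only through the F1 pigs at 30 °C. The genes were chosen by measured values of these same samples, the differences of the F1 cross from the mean of the CR and LW breeds. The values of that contrast, and of F1 against either breed, are therefore a description with no test.

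Whole thyroid glands came from 36 growing castrated male pigs, 1 per array, of the breeds Creole (CR) and Large White (LW) and their cross (F1). Each breed had 6 pigs labelled 24 °C and 6 labelled 30 °C; the growth protocol states 32 °C and 5 days for the hot exposure, and the labels' value is used as the name here. Pigs at 24 °C were killed ahead of the hot days and those at 30 °C at their end, so temperature, age and day of slaughter cannot be told apart. The study arranged littermates in blocks and kept pigs of a breed in shared pens, each slaughtered at a single temperature, but pen, litter, sire, dam and age are not in the labels, so p-values measure the spread between pigs some of which were related. In whole gland, fewer cells of a type and less RNA per cell cannot be told apart.

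Complex I takes electrons from NADH, passes them to ubiquinone and pumps protons across the inner mitochondrial membrane. The ND proteins form the core of its membrane arm, while the remaining subunits are made from nuclear genes. The mitochondrial DNA that encodes them passes from the dam to her offspring. Its genes are copied as long precursor RNAs that are then cut apart, most of them from the same strand; ND6 is read from the opposite strand. Thyroid follicular cells are rich in mitochondria, and hormone synthesis in the gland draws on their energy and on hydrogen peroxide.

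The arrays were alike in quality. The share of probes well above background ran from 72.8% to 80.3%, its median being 77.2% at 24 °C and 76.8% at 30 °C, and 0 spots were saturated. The follicular markers that define the gland were present, with thyroglobulin (TG) at a mean log2 intensity of 18.80 and well above background on all 36 arrays. Values below are log2 intensities after quantile normalization, and a level on one probe is not set against a level on another, because probes differ in how strongly they bind. Which sequence each pig carries under a probe was not checked, so a difference between pigs or breeds is given as one of intensity, not of transcript level.

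The probe sequences, taken from the scanner files and written 5′ to 3′, show what the probes of a gene share and where they differ. All are 60 bases long, and 28 of the 53 share at least 20 bases in a row with another probe of their gene, so such probes are repeated looks at the same stretch. No genome position is given for them. The first set holds overlapping ND2 probes whose breed differences were unlike. Capitals mark the bases at which they differ in the overlap, which are the substitution A13G, counted from 1 at the 5′ end of the first probe, and 1 base that only the first holds.
A_72_P719508: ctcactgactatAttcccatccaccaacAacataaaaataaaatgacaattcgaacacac
A_72_P727968: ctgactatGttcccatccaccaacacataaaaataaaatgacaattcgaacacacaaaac

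Another ND2 probe, O13734, is the reverse complement of part of this stretch and so lies on the other strand. Its capitals are the 47 bases that pair with A_72_P719508.
O13734: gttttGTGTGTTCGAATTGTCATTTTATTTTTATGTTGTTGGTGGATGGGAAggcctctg

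The ND1 probes A_72_P754234 and A_72_P739924 overlap and differ by 1 base that only the first holds, in capitals.
A_72_P754234: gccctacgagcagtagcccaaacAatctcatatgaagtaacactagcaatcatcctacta
A_72_P739924: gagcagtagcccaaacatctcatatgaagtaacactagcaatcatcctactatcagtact
One more ND1 probe lies in the same stretch. Capitals mark its differences from A_72_P739924, the substitution C10G, counted along A_72_P739924, and 1 base that only A_72_P745561 holds.
A_72_P745561: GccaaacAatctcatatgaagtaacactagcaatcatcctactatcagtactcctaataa

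Further along ND1, the probes A_72_P757573 and A_72_P758032 differ by the substitution C58T, counted along the first, and by 1 base that only the first holds and 1 that only the second holds. They are shown because F1 lay on opposite sides of the breeds on them.
A_72_P757573: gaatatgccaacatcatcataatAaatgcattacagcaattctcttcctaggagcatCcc
A_72_P758032: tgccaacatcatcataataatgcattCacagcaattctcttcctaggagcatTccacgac

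The ND4 probes A_72_P725193 and A_72_P731718 start at the same base and are shown as a pair that gave like values. Each holds 1 base that the other lacks, in capitals.
A_72_P725193: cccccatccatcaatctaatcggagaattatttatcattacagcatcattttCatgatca
A_72_P731718: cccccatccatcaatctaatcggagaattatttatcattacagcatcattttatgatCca

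ND3 is shown because its probe O2102 gave the 1 call of the report. It overlaps A_72_P028386 over 27 bases, in which they differ by T4C, C25G, A26G and T27G, counted along A_72_P028386.
A_72_P028386: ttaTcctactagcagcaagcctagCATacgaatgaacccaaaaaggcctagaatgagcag
O2102: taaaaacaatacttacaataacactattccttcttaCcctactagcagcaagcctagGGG

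The last pair are the ND6 probes, which do not overlap and differ in base composition. O2495 held 28.3% C and 6.67% G, and A_72_P442203 held 8.33% C and 26.7% G. Of the 53 probes, 48 held more C than G, and the 5 with more G than C included A_72_P442203, O13734 and the ND4 probe O5353.
O2495: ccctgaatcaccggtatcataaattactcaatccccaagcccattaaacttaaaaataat
A_72_P442203: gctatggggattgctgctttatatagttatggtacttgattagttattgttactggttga

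The first comparison asked whether the ND genes differed in the glands of pigs slaughtered after the hot days. No ND probe passed the test in limma at an adjusted p under 0.05. Beside the 1.18% called over all 46222 tested probes, 0 of 53 is close to the background. At an unadjusted p under 0.05 there were 3 of the 53, in ND2, ND4 and ND4L. The differences between 30 and 24 °C over the breeds lay between -0.13 and 0.10 on the log2 scale with a median of -0.07, and 50 of the 53 were below 0. Over all tested probes the median was 0.01 and 44.4% were below 0. Because the ND probes overlap and share pigs, the 50 are not separate observations. The 3 above 0, O13734, O5353 and A_72_P442203, were among the 5 with more G than C, and the other 2 of these, both in ND1, were below 0 (A_72_P769233 at -0.02 and A_72_P755299 at -0.06). The sign of O13734, at 0.03 (SE 0.08), is not read. Most of its values were not well above background, and only the F1 pigs at 30 °C brought it past the filter. One of them, replicate 4, read 6.49 on it, and the next highest pig read 5.78. The median of the 53 differences moved to -0.04, with 45 below 0, without replicate 6 of LW at 24 °C. Within the 4 slides that held all groups the sign was not stable: on the highest-signal probes the difference ran from -0.16 to 0.11 for ND1, from -0.15 to 0.21 for ND3 and from -0.17 to 0.28 for ND6.

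**Figure D1:**
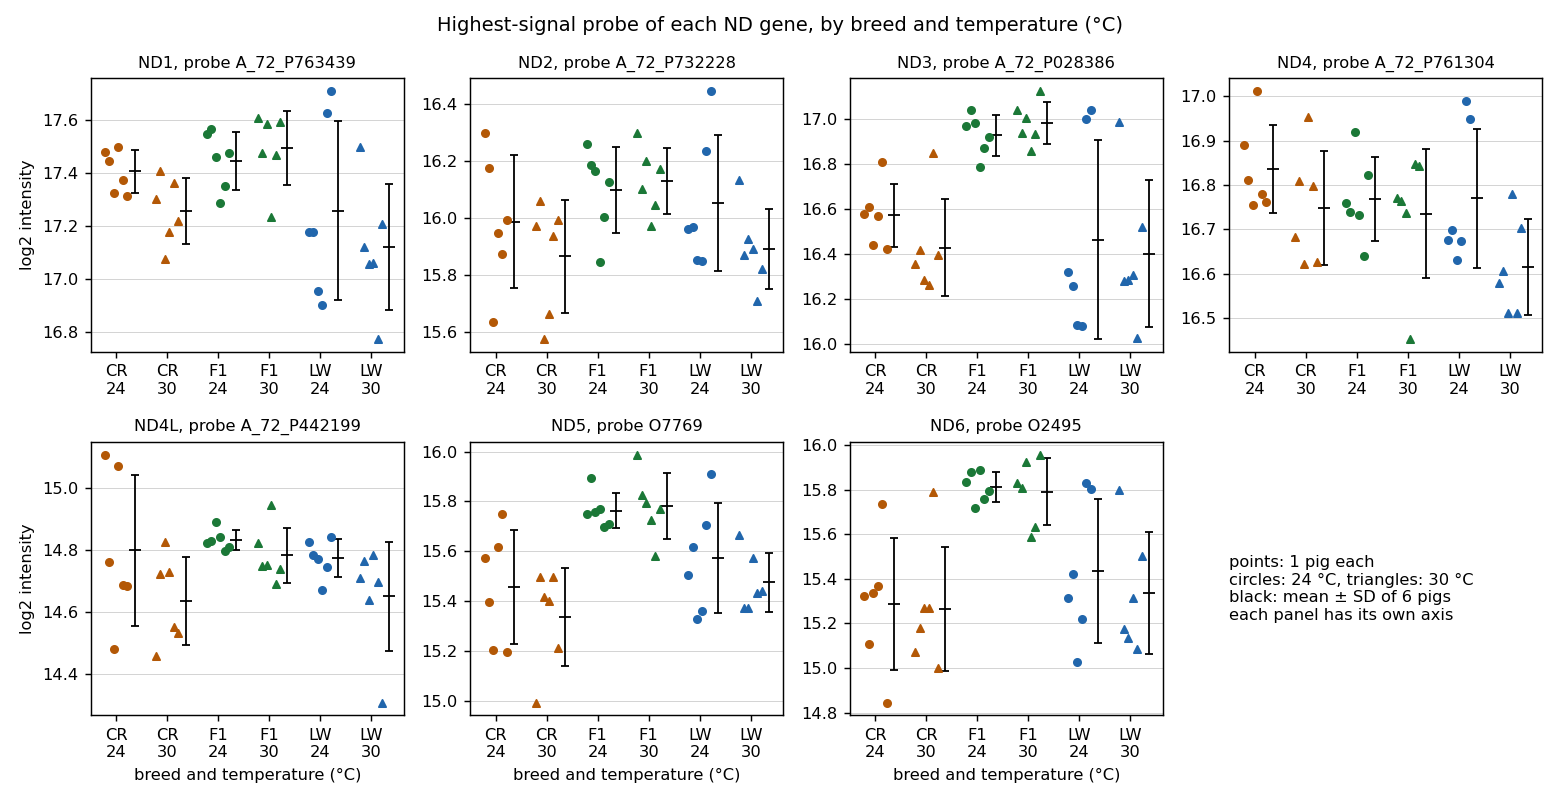
Log2 intensity of the probe with the highest mean signal of each ND gene, for CR, F1 and LW pigs at 24 °C (circles) and 30 °C (triangles); each point is 1 pig, black marks are the mean and SD of 6 pigs, and each panel has its own axis. The ranges at 24 and 30 °C overlapped in all 3 breeds on all 7 probes, and the F1 pigs lay close together on ND3, ND5 and ND6.

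ND1 sits where the membrane arm meets the arm that takes up electrons, and its highest-signal probe was A_72_P763439. The lowest, median and highest ND1 values of the CR pigs were 17.31, 17.41 and 17.50 at 24 °C and 17.08, 17.26 and 17.41 at 30 °C. LW pigs spread more widely on it, with 16.90, 17.18 and 17.71 at 24 °C and 16.77, 17.09 and 17.50 at 30 °C. F1 pigs gave 17.29, 17.47 and 17.57 at 24 °C and 17.24, 17.53 and 17.61 at 30 °C. The 6 groups overlapped, and no step between neighbouring group means, from F1 at 30 °C (17.49) down to LW at 30 °C (17.12), exceeded the larger SD of the 2 groups. The temperature difference of ND1 was -0.08 (SE 0.06, 95% interval -0.21 to 0.05, limma adjusted p 0.776). All 20 ND1 probes had a temperature difference below 0, between -0.08 and -0.02.

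ND2 is one of the proton-pumping subunits related to antiporters, and its highest-signal probe was A_72_P732228. CR pigs ranged around medians of 15.97 at 24 °C (15.64 to 16.30) and 15.96 at 30 °C (15.58 to 16.06) for ND2. The LW medians were 15.97 (15.85 to 16.45) and 15.88 (15.71 to 16.14), and the F1 medians were 16.15 (15.85 to 16.26) and 16.14 (15.97 to 16.30). No group stood apart, and all steps between neighbouring means, from 16.13 to 15.87, were under the larger SD. The temperature difference of this ND2 probe was -0.08 (SE 0.06, limma adjusted p 0.745). The largest temperature difference of any ND probe was also in ND2, on A_72_P735078, at -0.13 (SE 0.06, limma adjusted p 0.424).

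ND4 is another antiporter-like subunit, and its highest-signal probe was A_72_P761304. In CR the ND4 medians were 16.80 at 24 °C (16.76 to 17.01) and 16.74 at 30 °C (16.62 to 16.95). The F1 cross gave 16.75 (16.64 to 16.92) and 16.77 (16.45 to 16.85), and LW gave 16.69 (16.63 to 16.99) and 16.59 (16.51 to 16.78). All 6 ND4 groups overlapped, with CR at 24 °C first and LW at 30 °C last in the order of means, and no step between neighbouring means exceeded the larger SD. The temperature difference of ND4 was -0.09 (SE 0.04, 95% interval -0.18 to -0.00, limma adjusted p 0.472). Of the 11 ND4 probes, 10 had a difference below 0, and O5353 read 0.09 (SE 0.08).

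ND5, also antiporter-like, lies at the far end of the membrane arm. Its highest-signal probe was O7769, on which CR pigs gave a median of 15.49 at 24 °C (15.20 to 15.75) and 15.41 at 30 °C (14.99 to 15.50). LW pigs gave 15.56 (15.33 to 15.91) and 15.44 (15.37 to 15.67), and F1 pigs gave 15.75 (15.70 to 15.89) and 15.78 (15.58 to 15.99). The ND5 order placed both F1 groups first and both CR groups last, with every step under the larger SD. The F1 pigs at 24 °C all lay above the CR and LW pigs at 30 °C. Those of F1 at 30 °C all lay above the CR pigs at 30 °C. Every other pair of ND5 groups overlapped, and the place of F1 is described only. The temperature difference was -0.07 (SE 0.06, limma adjusted p 0.798), and all 3 ND5 probes were below 0, between -0.09 and -0.07.

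ND3 is a small subunit close to ND1, and its highest-signal probe was A_72_P028386. The CR medians for ND3 were 16.57 at 24 °C (16.42 to 16.81) and 16.38 at 30 °C (16.26 to 16.85). Those of LW were 16.29 (16.08 to 17.04) and 16.30 (16.03 to 16.99), and those of F1 were 16.95 (16.79 to 17.04) and 16.97 (16.86 to 17.13). The step from the F1 means to that of CR at 24 °C was 0.36, above the SDs of 0.09 and 0.14. The range of F1 at 24 °C, which began at 16.79, still overlapped those of CR and LW at both temperatures. F1 at 30 °C began at 16.86 and lay above both CR groups, which reached 16.81 and 16.85. It overlapped both LW groups, which reached 17.04 and 16.99. The other neighbours in the order did not differ beyond their SD. As F1 led to the choice of the genes, its step is described only. The temperature difference of ND3 was -0.05 (SE 0.08, limma adjusted p 0.929).

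ND4L is a small subunit whose reading frame is carried with that of ND4 in a shared messenger RNA, and the array held 1 probe for it, A_72_P442199. CR pigs read 14.73 at 24 °C (14.48 to 15.11) and 14.64 at 30 °C (14.46 to 14.83) as medians. The F1 medians were 14.83 (14.80 to 14.89) and 14.75 (14.69 to 14.95), and the LW medians were 14.78 (14.67 to 14.84) and 14.70 (14.31 to 14.78). The F1 pigs at 24 °C all lay above the LW pigs at 30 °C, every other pair of ND4L groups overlapped, and no step between neighbouring means exceeded the larger SD. The F1 pigs at 24 °C were also the tightest, with an SD of 0.03 against 0.25 in CR at 24 °C. ND4L had the lowest p-value of the 53 probes for temperature, with a difference of -0.11 (SE 0.05, 95% interval -0.21 to -0.01, limma adjusted p 0.409).

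ND6 is encoded on the strand opposite to the other genes, and its highest-signal probe, O2495, has the C-rich composition of the other genes' probes. Both ND6 probes are named by the gene name in the scanner files, and the strand they read was not checked. On O2495 the CR medians were 15.33 at 24 °C (14.84 to 15.73) and 15.23 at 30 °C (15.00 to 15.79). LW had 15.37 (15.03 to 15.83) and 15.25 (15.09 to 15.80), and F1 had 15.81 (15.72 to 15.89) and 15.82 (15.59 to 15.96). The step between the F1 groups and the next, LW at 24 °C, was 0.35, above the larger SD of 0.32. It is described only, and LW at 24 °C, reaching 15.83, overlapped both F1 ranges. The G-rich ND6 probe, A_72_P442203, gave CR medians of 8.08 (7.76 to 8.55) and 8.27 (7.74 to 8.48), LW medians of 8.17 (7.54 to 8.38) and 8.22 (7.90 to 8.54), and F1 medians of 7.78 (7.62 to 7.92) and 7.80 (7.72 to 8.15). F1 thus lay high on one ND6 probe and low on the other. Their temperature differences were -0.05 (SE 0.08) for O2495 and 0.10 (SE 0.08) for A_72_P442203, neither of which passed the limma test.

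Within breeds, no ND probe passed the test for temperature. The shares called over all tested probes were 0.387% in CR, 0.383% in F1 and 0% in LW, where limma called 0 probes and 1852 had an unadjusted p under 0.05. The median of the 53 ND differences was -0.10 in CR, with 48 below 0, and -0.13 in LW, with 50 below 0. In F1 the median was -0.00, with 27 below 0. At an unadjusted p under 0.05 there were 1 ND probe in CR, 0 in F1 and 2 in LW. These tests share 1 estimate of a probe's spread over all 6 groups, although the groups were not equally spread. On the ND3 probe A_72_P028386 the SD was 0.09 in each F1 group and 0.44 and 0.33 in LW at 24 and 30 °C. The difference between breeds in their temperature response was tested itself, and 0 of the 53 passed, as did 0% of all tested probes. Of all probes 2157 had an unadjusted p under 0.05 in that test, and 0 of the ND probes did. The ND probe with the smallest interaction p was O2102 of ND3, at an unadjusted limma p of 0.232.

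**Figure D2:**
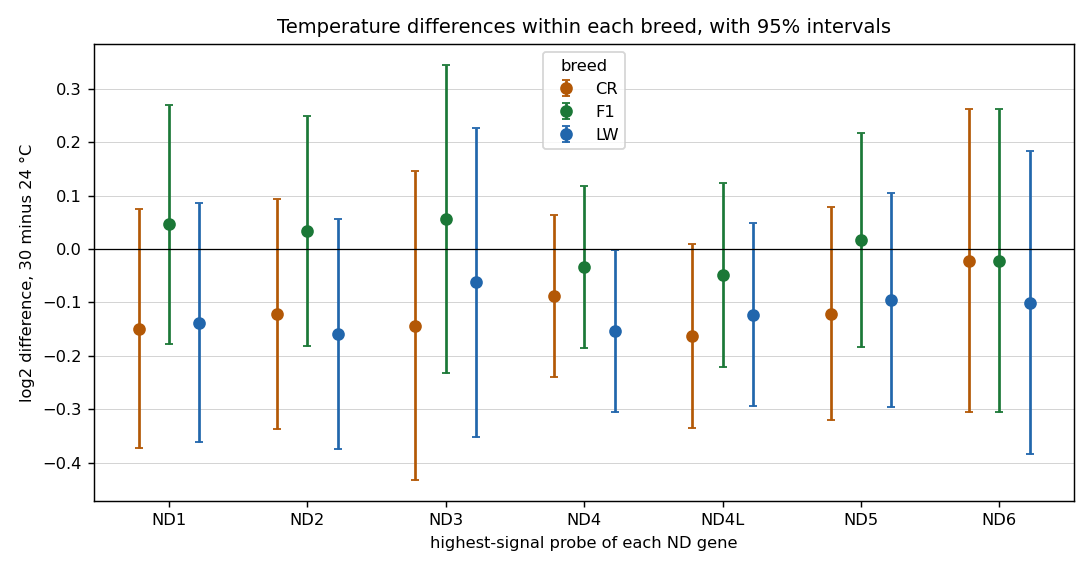
Log2 difference between 30 and 24 °C within CR, F1 and LW pigs for the highest-signal probe of each ND gene, with 95% intervals from limma (6 pigs a group). The CR and LW points lie below 0 for all 7 genes, the F1 points lie between -0.05 and 0.06, and the 3 intervals of each gene overlap.

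The second comparison set LW against CR over both temperatures. The test called 12.9% of all tested probes and 1 of the 53 ND probes, the ND3 probe O2102, a share well under the background. O2102 read 15.18, 15.43 and 15.63 as the lowest, median and highest values of the CR pigs at 24 °C and 15.13, 15.28 and 15.39 at 30 °C. LW pigs read 15.15, 15.24 and 15.29 at 24 °C and 14.90, 15.20 and 15.31 at 30 °C. The ranges overlapped at both temperatures. The difference was -0.16 (SE 0.05, 95% interval -0.27 to -0.06, limma adjusted p 0.0338), and within the 4 slides that held all groups it lay between -0.28 and -0.01. It missed the threshold with the processed signal (adjusted p 0.0753) and with the array position as a block (adjusted p 0.0549). No ND probe was called without any 1 of 8 pigs, which were replicates 1, 2 and 4 of CR at 24 °C, 2 and 4 of CR at 30 °C, 4 of LW at 24 °C, and 5 and 6 of LW at 30 °C. The overlapping ND3 probe A_72_P028386 gave -0.07 (SE 0.10, limma adjusted p 0.735).

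The other ND probes did not separate LW from CR by the test, with differences between -0.27 and 0.39, and 7 of the 53 had an unadjusted p under 0.05. Their sign differed by gene: 16 of 20 ND1 probes and 10 of 11 ND4 probes were below 0, and 10 of 13 ND2 probes and all 3 ND5 probes were above 0. The widest were the ND2 probe A_72_P719508 at 0.39 (SE 0.37) and the ND1 probe A_72_P758032 at -0.27 (SE 0.11, limma adjusted p 0.0841). As described below, 2 CR and 4 LW pigs lay apart with the F1 pigs on A_72_P719508. The same pigs were the lowest of their breeds on A_72_P758032, and their unequal number enters both differences. For the highest-signal probes the differences were -0.14 (SE 0.08) for ND1, 0.05 (SE 0.07) for ND2, -0.07 (SE 0.10) for ND3, -0.10 (SE 0.05) for ND4, -0.01 (SE 0.06) for ND4L, 0.13 (SE 0.07) for ND5 and 0.11 (SE 0.10) for ND6. Their sign was not the same within every slide: for ND6 the difference ran from -0.39 to 0.41 over the 4 slides that held all groups. The adipocyte markers went with the same contrast, with 4 of 7 genes called lower in LW and a median difference of -0.35, led by ADIPOQ at -1.21 (SE 0.23) and PLIN1, a lipid droplet protein, at -1.20 (SE 0.18). Their summed log2 level ranged from 13.94 to 15.45 in CR and from 14.04 to 15.03 in LW, and the share of all probes called was 12.9%. Of 6 endothelial genes 3 were called higher in LW, KDR at 0.73 (SE 0.10), PECAM1 at 0.35 (SE 0.09) and CDH5 at 0.19 (SE 0.06), with a summed level of 15.04 to 15.46 in CR and 15.26 to 15.76 in LW. The part of either cell type in the ND values was not tested.

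**Figure D3:**
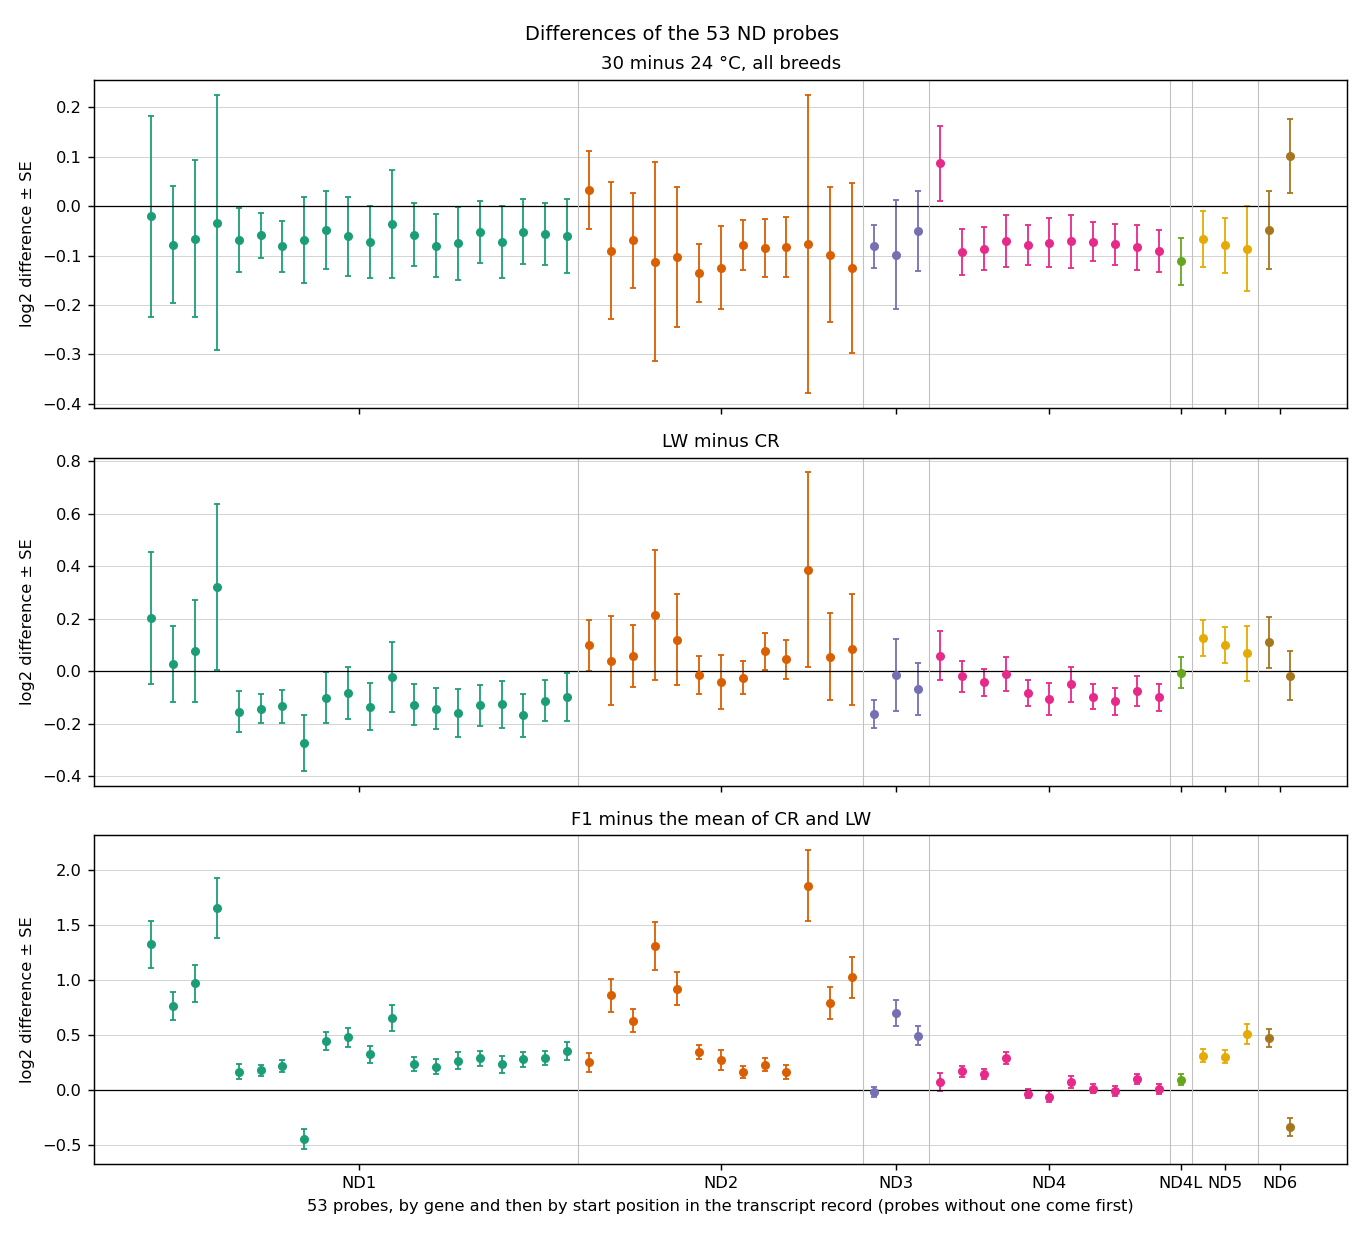
Log2 differences, with the SE from limma, of the 53 ND probes for temperature, for LW against CR and for F1 against the mean of both breeds; probes are ordered by gene and by start position in the transcript record, and colours mark genes. Temperature differences lie between -0.13 and 0.10, while probes of the same gene run from -0.44 to 1.65 (ND1) and from 0.16 to 1.86 (ND2) in the lowest panel.

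How far the F1 pigs stood from the breeds depended on the probe, and the widest single probes were in ND2 and ND1. This is the contrast that led to the choice of the genes and is described only. F1 minus the mean of CR and LW lay above 0 on 47 of the 53 probes and ranged from -0.44 to 1.86, with a median of 0.28. The medians by gene were 0.63 for ND2, 0.49 for ND3, 0.31 for ND5, 0.29 for ND1, 0.09 for ND4L and 0.07 each for ND4 and ND6. Over all tested probes the median was -0.00. On the highest-signal probes the order was another, with ND3, ND6 and ND5 above ND1 and ND2.

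Overlapping probes of the same gene gave unlike F1 values. On the ND2 probe A_72_P719508 F1 was 1.86 (SE 0.32) above the mean of the breeds, and on A_72_P727968, which differs from it by A13G and 1 missing base in the overlap, it was 0.79 (SE 0.14). The complementary probe O13734 gave 0.25 (SE 0.08), most of its values being not well above background. The trio in ND1 gave 0.76 (SE 0.13) on A_72_P754234, 0.97 (SE 0.17) on A_72_P739924 and 1.65 (SE 0.27) on A_72_P745561. F1 lay above the breeds on A_72_P757573, at 0.21 (SE 0.05), and below them on A_72_P758032, at -0.44 (SE 0.09). The ND4 pair gave 0.01 (SE 0.04) on A_72_P725193 and -0.01 (SE 0.04) on A_72_P731718. Position along the transcript did not order the values either. In ND1 the probes that start at bases 68 and 410 gave 1.32 and 1.65, and between them lie A_72_P754234 and A_72_P739924, at 0.76 and 0.97. Those that start at 520 to 678 gave 0.16 to 0.21, and the next, A_72_P758032, gave -0.44. Further along, on A_72_P729778, the mean was 16.89 in F1, 16.25 in CR and 16.23 in LW.

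Against the breeds one at a time, A_72_P719508 was 2.05 (SE 0.37) higher in F1 than in CR and 1.66 (SE 0.37) higher than in LW. For the highest-signal probes, F1 minus the mean of the breeds was 0.21 (SE 0.07) for ND1, 0.16 (SE 0.06) for ND2, 0.49 (SE 0.09) for ND3, 0.01 (SE 0.05) for ND4, 0.09 (SE 0.05) for ND4L, 0.31 (SE 0.06) for ND5 and 0.47 (SE 0.08) for ND6. The ND6 probe A_72_P442203 went the other way, at -0.34 (SE 0.08). A further 4 probes lay below 0 in ND3 and ND4, none of them lower than -0.06.

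**Figure D4:**
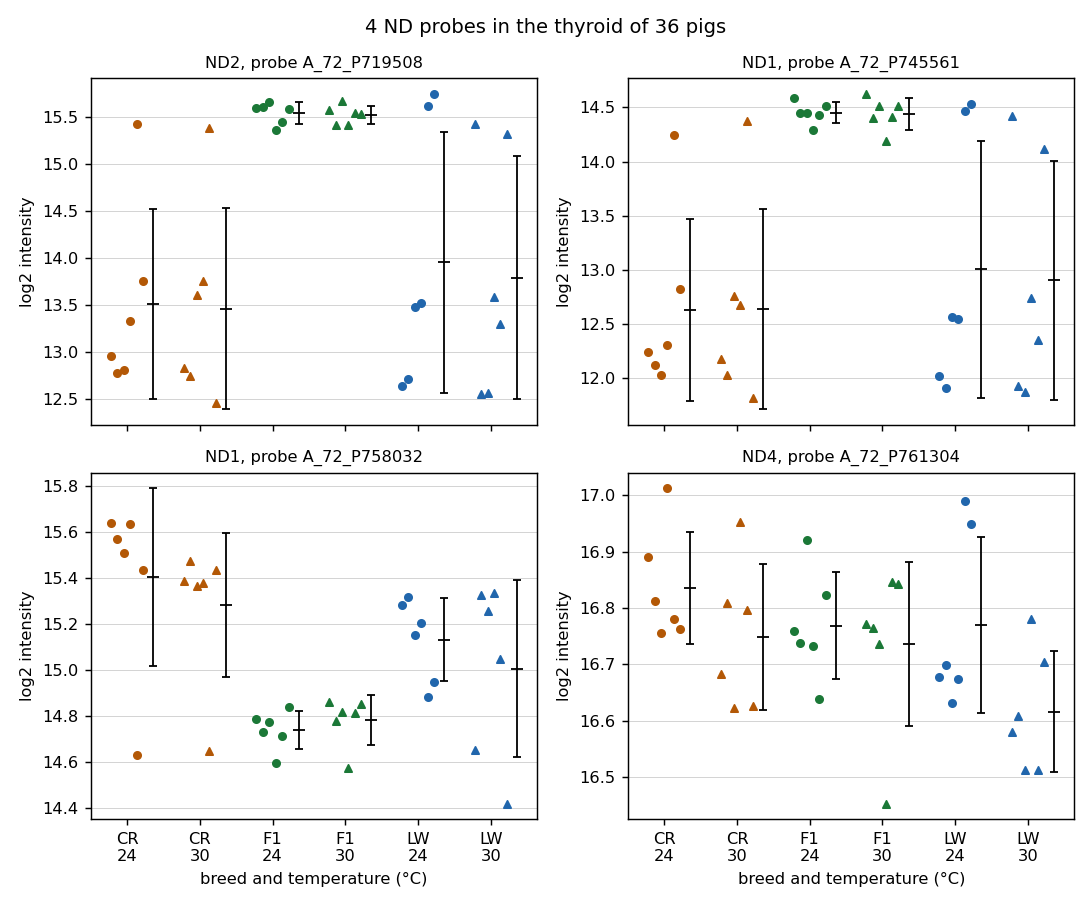
Log2 intensity in each of 36 pigs on ND2 probe A_72_P719508, ND1 probes A_72_P745561 and A_72_P758032, and ND4 probe A_72_P761304, by breed and temperature in °C; circles are 24 °C, triangles 30 °C, and black marks the mean and SD of 6 pigs. On the first 2 probes all 12 F1 pigs, 2 CR pigs and 4 LW pigs lie above a gap with no pig in it, and on A_72_P758032 the same CR pigs lie lowest of their groups.

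Pig by pig, the values on several probes were not spread evenly but fell on either side of a gap. On A_72_P719508 18 pigs lay between 15.32 and 15.74 and the other 18 between 12.46 and 13.75, with nothing in the 1.57 between them. Above the gap were all 12 F1 pigs, 2 of 12 CR pigs and 4 of 12 LW pigs, 9 at each temperature and on all 5 slides. The lower pigs parted once more, with 10 at 12.96 or less and 8 at 13.30 or more. This second split went with the slide: 7 of the 8 were on slides 3 and 4 and the other on slide 2, and the 10 were on slides 1, 2 and 5, the part of the slide being not tested. The SD of a CR or LW group on this probe, between 1.01 and 1.39, was therefore mostly the distance between these levels, while the F1 groups had SDs of 0.11 and 0.10. On A_72_P745561 of ND1 the same 18 pigs lay between 14.11 and 14.62 and the others between 11.82 and 12.82.

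The widest gap in the 36 values separated the same 18 pigs from the others on 12 of the 53 ND probes, 6 of ND2, 5 of ND1 and 1 of ND5. The 12 include A_72_P719508 itself, whose gap defined the 18 pigs. They also include the overlapping probe A_72_P727968 and the overlapping ND1 trio shown above, so they are not separate observations. Probes of nuclear genes were not counted in this way. It was as wide as 1.57 in ND2 and 1.29 in ND1, and as narrow as 0.11 on the ND5 probe A_72_P155721. On the other ND probes the widest gap fell elsewhere, on many of them beside a single pig. The highest-signal probes of all 7 genes were among these others, so none of them had this split as its widest gap. A narrower split was not counted. On the ND6 probe O2495 the same 18 pigs read 15.50 or more and the others 15.42 or less. The ND3 probe A_72_P028386 had 17 of them above its widest gap. On A_72_P758032 the order was turned: the CR pigs above the gap on A_72_P719508 read 14.63 and 14.65 and the other 10 CR pigs between 15.37 and 15.64. The 4 LW pigs read 14.42, 14.65, 14.88 and 14.95 on it and the other 8 between 15.05 and 15.33.

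The CR and LW pigs above the gap were neighbours in the numbering of animals in the labels, as were many pigs below it. In CR they were the pigs numbered 915 and 916, the lowest CR numbers in the series, 1 at each temperature. They read 15.42 and 15.38 on A_72_P719508, and the next, 919, read 12.46. In LW they were 272, 273, 274 and 276, which follow one another among the LW pigs studied, 2 at each temperature. They read 15.32, 15.42, 15.62 and 15.74, whereas 263 before them read 13.30 and 285 after them 12.55. Numbers are not parentage, which the labels do not give.

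**Figure D5:**
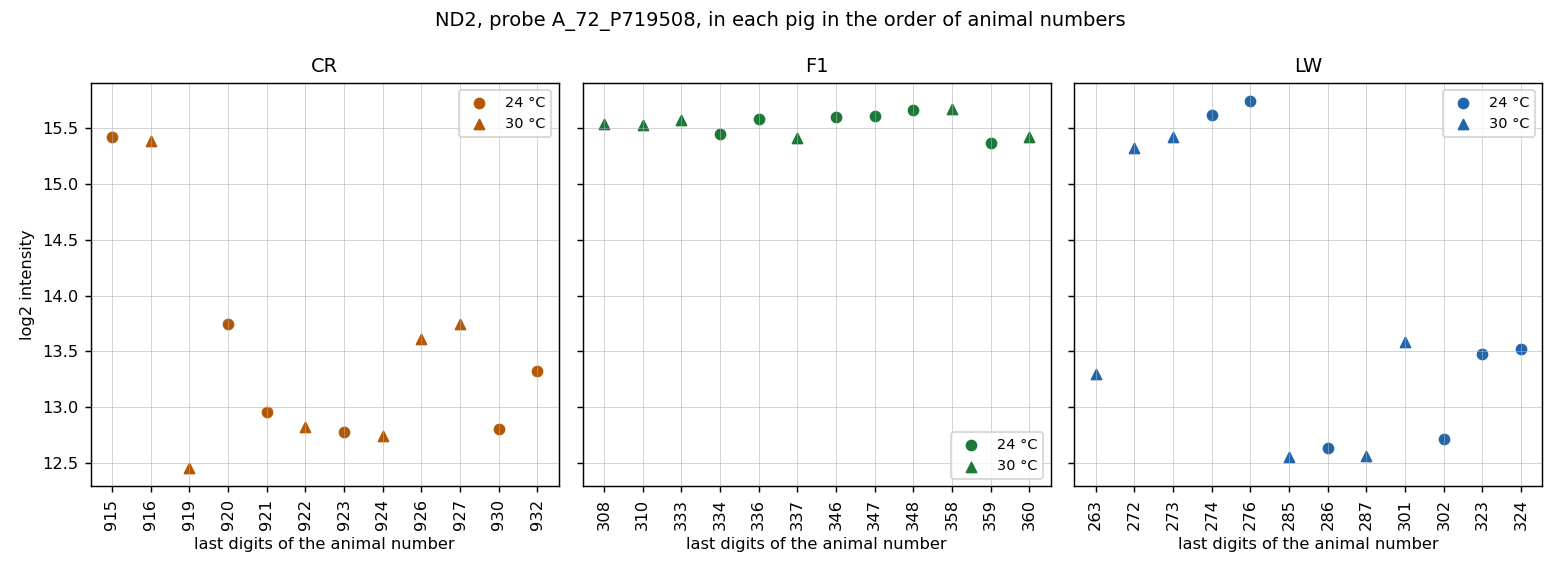
Log2 intensity of ND2 probe A_72_P719508 in each pig, in the order of the last digits of the animal number in the labels, for CR, F1 and LW; circles are 24 °C and triangles 30 °C. The high CR pigs are 915 and 916 and the high LW pigs 272, 273, 274 and 276, while all 12 F1 pigs lie between 15.36 and 15.67.

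The other mitochondrially encoded genes on the array, COX1, COX2, COX3, CYTB, ATP6 and ATP8, had 76 tested probes. Their temperature differences had a median of -0.09, with 72 of 76 below 0 and 0 called by limma (23 at an unadjusted p under 0.05). LW against CR had a median of 0.04 and 6 of the 76 were called, beside 12.9% of all probes. F1 minus the mean of the breeds ranged from -0.06 to 2.07 with a median of 0.14. The gap that separated the 18 pigs was the widest on 5 of these probes, 4 of CYTB and 1 of COX3.

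The nuclear genes for complex I, taken by their highest-signal probe, were compared for temperature and for LW against CR. For temperature 0 of 6 core subunits and 0 of 27 accessory subunits were called, with 0 and 0 at an unadjusted p under 0.05, and the median differences were 0.01 for both. For LW against CR 0 of 6 core subunits were called (1 at an unadjusted p under 0.05). Of the 27 accessory subunits, NDUFC1, at 0.23 (SE 0.05, limma adjusted p 8.81e-04), and NDUFV3, at 0.32 (SE 0.10, limma adjusted p 0.0213), were higher in LW, and NDUFC2, at -0.25 (SE 0.07), and NDUFB11, at -0.24 (SE 0.07), were lower. Beside the 12.9% called over all probes, 4 of 27 is close to the background.

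Of 10 complex I assembly factors and 6 regulators of mitochondrial biogenesis, 0 were called in either comparison; at an unadjusted p under 0.05 there were 0 and 1 for temperature and 1 and 2 for LW against CR. Of 7 genes of mitochondrial DNA maintenance and transcription, 0 were called for temperature (1 at an unadjusted p under 0.05). For LW against CR 12.9% of all tested probes were called. Of the 7 genes, SSBP1, which binds single-stranded mitochondrial DNA, was called higher in LW at 0.19 (SE 0.05). TFB1M, which methylates mitochondrial ribosomal RNA, was called lower at -0.23 (SE 0.07). Of 12 genes of mitochondrial RNA processing and stability, 0 were called for temperature (0 at an unadjusted p under 0.05). For LW against CR 1 of the 12 was called, under the share over all probes. It was GRSF1, an RNA-binding protein of mitochondrial RNA granules, higher in LW at 0.31 (SE 0.06, limma adjusted p 0.0012).

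Markers of other cells were counted for temperature as well, for which 1.18% of all tested probes were called. All 4 erythroid genes were below 0 and 1 was called, HBB, a haemoglobin chain, at -1.004 (SE 0.19, limma adjusted p 0.00142). All 7 adipocyte genes and 5 of 6 fibroblast genes were below 0, with medians of -0.30 and -0.28 and 0 called (3 and 2 at an unadjusted p under 0.05). Endothelial genes lay 3 above and 3 below 0 (median 0.01) and C cell genes 2 above and 2 below (median 0.06), with 0 called in limma (1 and 0 at an unadjusted p under 0.05). Of 11 skeletal muscle genes 9 were below 0 (median -0.07), with 0 called (0 at an unadjusted p under 0.05). Within breeds, 11 muscle genes were below 0 in CR (median -0.20), 1 in F1 (median 0.08) and 9 in LW (median -0.05). Leukocyte genes lay 5 of 6 below 0 (median -0.10) and the 1 parathyroid gene at 0.08, with 0 called (1 and 0 at an unadjusted p under 0.05). The summed erythroid level ranged from 9.90 to 11.86 at 24 °C and from 9.19 to 11.10 at 30 °C. Of the 10 follicular cell genes tested, 0 were called for temperature (0 at an unadjusted p under 0.05), with a median of -0.01. The part of these cells in the ND values was not tested.

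Likeness to the ND genes was measured over the 36 arrays for 11983 other named genes, as the correlation with the mean of the 7 highest-signal probes after scaling. The highest were BRI3BP (Pearson r 0.69), TMEM184A (0.63), CKB, a creatine kinase (0.62), PLEKHD1 (0.62) and LOC783910 (0.61). With the 6 group means removed they were 0.57, 0.60, 0.46, 0.42 and 0.43. The lowest were IFNAR2, an interferon receptor chain (-0.62), TOMM5, a part of the import pore of the outer mitochondrial membrane (-0.59), and WAC (-0.58), with -0.44, -0.57 and -0.43 after the group means were removed. These are descriptions with no test; the arrays share breeds and slides, and pigs on either side of the gap enter each value. Among the 7 probes themselves the correlation ran from 0.21 (ND4L with ND6) to 0.88 (ND3 with ND6).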

How the data were processed

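The 36 thyroid RNAs, 1 per pig, were measured on 1-colour Agilent arrays after Cy3 labelling. Per the submitters' processing notes, scanning used Agilent Feature Extraction 10.10.1.1 and normalization limma. Per the file headers, the scanner files hold spot and background intensity that is unscaled between arrays. The authors deposited quantile-normalized log2 values for 46097 probes, and the values here, remade from the median intensity, differed from them by a median of 0.0056. Control spots (1319 an array) were left out, 106 non-uniform spots were set to missing and spots of a probe were averaged. A probe was tested if well above background on at least 5 of 6 arrays of a group (46222 of 60305). Array number and signal over background limit the precision.

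Linear models (limma 3.58.1, run under R 4.3.3, with eBayes) were fitted to all 36 arrays with breed and temperature, or with 6 group means for within-breed and interaction tests. P-values were adjusted by Benjamini-Hochberg over all tested probes, and an adjusted p under 0.05 is called. The fit was tested on simulated data: of 50 probes changed by 0.25 for temperature, among 46162, 25 were recovered, and of 50 changed by 0.5, 49. Sequences were aligned with Biopython. The members and gene lists were chosen with earlier results of these data known. All 7 genes are named, with the highest-signal probe of each in full and other probes where called or opposite in sign; those named for their F1 values or gaps were chosen after values were seen. List genes are represented by their highest-signal probe. Alternatives were other scalings, background correction, the deposited table, other filters, slide and position blocks, no breed term, mean probes and each pig left out. Nuclear copies of mitochondrial sequence, the strand of the probes' targets and sequence variants under the probes were not checked, and no genome was used here.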

Additional observations from a re-analysis of the deposited data

Results flagged for a closer look

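Within groups of 6 pigs, 66 sets of values on the 7 highest-signal probes and 4 further probes were checked for a pig far from the others, by the gap to its neighbour as a share of the range, against Dixon's 95% critical value. Chance flags about 1 group in 20, and 12 were past it, but the 4 further probes were chosen after their values were seen and hold 6 of the 12. In 5 of those 6 the pig is the lone CR pig of its group beyond the gap described above, so the number of flags is not read against chance. On the ND1 probe A_72_P758032 the lowest pig was replicate 5 of CR at 30 °C (14.65, share 0.872), replicate 5 of CR at 24 °C (14.63, share 0.797) and replicate 4 of F1 at 30 °C (14.57, share 0.712). The same CR pigs were highest on A_72_P745561 of ND1 (14.24, share 0.643 at 24 °C; 14.37, share 0.629 at 30 °C), and the 24 °C pig on A_72_P719508 of ND2 (15.42, share 0.633). Replicate 5 of CR at 30 °C was also highest on the ND3 probe A_72_P028386 (16.85, share 0.732) and the ND6 probe O2495 (15.79, share 0.659). Replicate 4 of F1 at 30 °C was lowest on the ND4 probe A_72_P761304 (16.45, share 0.720) and the ND1 probe A_72_P763439 (17.24, share 0.627). Replicate 6 of LW at 30 °C was lowest on ND4L (14.31, share 0.700), and replicate 2 of F1 at 24 °C was highest on the ND5 probe O7769 (15.89, share 0.639).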

How the results depend on the processing

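The count of 0 ND probes for temperature, over the breeds, within each breed and for the interaction, was 0 under every alternative run and with each pig left out, and 50 ND probes were below 0 for temperature in each other alternative, and 45 to 51 with 1 pig left out. The median of these differences lay between -0.09 and -0.04 with 1 pig left out. Without replicate 6 of LW at 24 °C that median was -0.04, ND1 -0.05 and ND3 -0.013; ND6 was -0.021 without replicate 5 of CR at 24 °C. For LW against CR the count of 1 became 2 after 75th percentile scaling of the median signal, 2 with a fixed and 1 with a random block for slide, 0 with a block for position on the slide, and 0 to 3 with 1 pig left out. It was 2 without replicate 5 of CR at either temperature or of LW at 24 °C, and 3 without replicate 6 of LW at 24 °C. With the processed signal the count was 1, but the probe was A_72_P755299 of ND1 and not O2102. The ND4L difference of LW against CR lay between -0.033 and 0.027 with 1 pig left out and so changed sign. The mean over all probes of a gene in place of its highest-signal probe moved F1 minus the mean of the breeds to 0.44 for ND1, 0.68 for ND2 and 0.07 for ND6. Differences within slides were added after seeing the data. No paired analysis was possible because the labels number no replicates, and litters are not given.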
